A study of Mus musculus with 5 samples.

Results

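The cells described here are sorted mouse neutrophils that carried at least 4 UMIs of Scnn1a, Slc40a1 and H2-Q10 in sum (a UMI, or unique molecular identifier, counts 1 captured mRNA molecule). They were selected by a series of gates on UMI counts, from barcodes with at least 200 UMIs, at least 100 detected genes and under 20% of UMIs from mitochondrially encoded genes. S100a8 and S100a9, the subunits of calprotectin, had to make up at least 2% of a cell's UMIs. The sum of C1qa, F13a1, Cd79a, Cd3e and Clec4g, genes of other cell types, had to be under 2 UMIs, Ngp, a granule gene of immature neutrophils, under 10, the interferon-induced Ifit1, Ifit3 and Rsad2 together under 3, the activation genes Il1a, Icam1 and Nr4a3 under 3, and Trem1 and Cd14, which sense microbial products, under 4. Of 38072 barcodes, 36720 were kept, 13876 passed every gate before the last, and 5863 of these had the sum of at least 4 and are the members, 2540 of them in the pool YO1 and 3323 in YO2. The 3529 cells that passed the same gates with a sum of 0 or 1 served as reference cells (2618 in YO1 and 911 in YO2), and 4484 cells with a sum of 2 or 3 lay between.

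The libraries came from C57BL/6 mice, an inbred laboratory strain, housed at steady state under specific-pathogen-free conditions and given no treatment that the labels name. The young mice are given as 10 weeks old in the sample annotation but as 8 weeks in the series design, and the old ones were 20 months of age. Neutrophils were sorted from the bone marrow, blood, spleen, liver, intestine and lung as live cells (DAPI-negative) with CD11b and Ly6G on their surface, and their transcriptomes were read on the BD Rhapsody microwell platform. The whole experiment was done on 2 occasions with 1 cartridge each, and each cartridge pooled both ages and several tissues. A barcode showed its pool but not its tissue, age or animal, so every member is described by pool, and levels in tissues or ages were not analysed here.

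Neutrophils mature in the bone marrow through stages marked by the granule proteins they make: azurophil proteins first, then those of secondary and tertiary granules. Mature cells stop most of this synthesis, take up the receptors Cxcr2 and Csf3r and leave for the blood and tissues. Scnn1a encodes the alpha subunit of the epithelial sodium channel, Slc40a1 encodes ferroportin, the exporter of cellular iron, and H2-Q10 encodes a class Ib MHC molecule that the mouse liver secretes into serum. In GRCm38 Scnn1a lies on chromosome 6 at 125320659 to 125344943, Slc40a1 on chromosome 1 at 45908068 to 45926523, and H2-Q10 on chromosome 17 at 35470089 to 35474563. H2-Q10 belongs to a family of close copies, and the sources used here do not say how reads shared with other H2-Q genes were counted.

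The members had the profile of mature neutrophils. S100a9 and S100a8 led their transcriptome, with 37298 and 29142 CPM in YO1 and 27124 and 26411 in YO2. Levels are in CPM, the UMIs of a gene per 1000000 UMIs summed over a group of cells. Both are gate genes, so their high level was in part set by the rule. Retnlg, a resistin-like gene of neutrophils outside the gate, stood at 13168 and 8655. Cxcr2, the chemokine receptor of circulating neutrophils, was at 3051 in YO1 and 4089 in YO2. Csf3r, the G-CSF receptor, was at 2329 and 2567. Ly6g, the antigen of the sort, was far lower at 143 and 90.3 CPM. Reference cells were close to this for Cxcr2, at 2948 and 4007, and for Csf3r, at 1947 and 2538. Their Retnlg was at 22732 in YO1 and 8889 in YO2. The 14 neutrophil markers, with S100a8 and S100a9 among them, summed to 95609 and 78216 CPM in members of YO1 and YO2. In reference cells they summed to 126960 and 81272.

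The sum of the 3 genes did not set the members apart from the other gated cells: it was spread in a single hump with no gap at 4. This is the value that chose the members, and at such low counts a gap between groups could hardly be seen. In YO1 12.97% of the 7995 gated cells had a sum of 0, 19.8% a sum of 1, 19.0% a sum of 2, 16.5% a sum of 3, 11.8% a sum of 4 and 7.13% a sum of 5. In YO2 the most frequent of the 5881 cells' sums was 3, at 14.6%, followed by 2 at 13.4% and 4 at 12.99%. On its low side lay 1320 cells with a sum of 3 in YO1 and 857 in YO2, and on its high side 945 and 764 cells with a sum of 4. Cells at 3 and at 4 had median totals of 979.5 and 1004 UMIs in YO1 and of 1213 and 1211 UMIs in YO2. Fgl2, not used by the gate, was at 1846 CPM at a sum of 3 and 2005 at a sum of 4 in YO1, and at 2019 and 2059 in YO2. The members are called by their rule, and no cell type name is given to them.

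**Figure D1:**
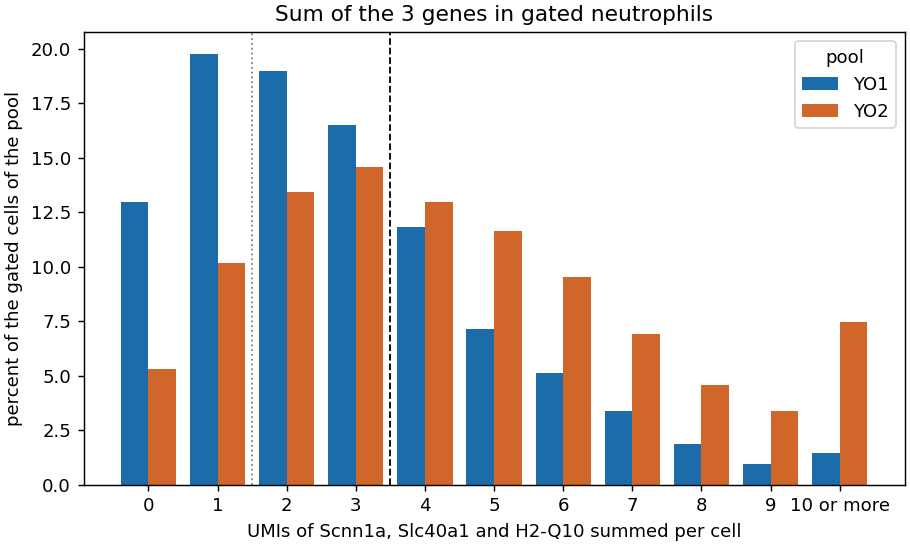
Percent of gated neutrophils (vertical axis) at each sum of Scnn1a, Slc40a1 and H2-Q10 UMIs (horizontal axis), blue for YO1 and orange for YO2; cells left of the dotted line are the reference and cells right of the dashed line are the members. Each pool shows 1 hump, highest at a sum of 1 in YO1 (19.8%) and of 3 in YO2 (14.6%), with no dip at the dashed line.

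The levels of the 3 genes in members follow from the gate and are given as description. H2-Q10 contributed most in both pools: it stood at 2501 CPM in YO1 members and 2013 in YO2 members, against 306 and 264 in the reference cells. Scnn1a was at 1130.1 in YO1 members and 1509 in YO2 members, against 140.2 and 154. Slc40a1 was at 842 and 957, against 152 and 146. At least 1 UMI of H2-Q10 was present in 93.9% of YO1 members and 90.2% of YO2 members, of Scnn1a in 67.2% and 78.2%, and of Slc40a1 in 61.0% and 68.9%. All 3 genes were seen together in 34.0% of YO1 members and 45.0% of YO2 members, while 11.8% and 7.64% reached the sum of 4 on a single gene. The highest sum in 1 cell was 21 UMIs in YO1 and 24 in YO2.

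No joint movement of the 3 genes from cell to cell was seen. Among gated cells of 1000 to under 1200 UMIs, where depth hardly varies, the correlation between pairs of the genes lay from 0.01 to 0.03 over 1713 cells of YO1 and from -0.03 to 0.02 over 1643 cells of YO2. These are sparse counts of a mean of 0.62 to 1.73 UMIs per gene and cell, so a weak relation could not be seen in them. The relation was also tested on sums of cells, by gating on 1 of the genes (at least 2 UMIs against 0) and reading the other 2. None of the 6 readings passed the threshold. Gated on Scnn1a, H2-Q10 was at 1375 CPM in high and 1376 in low cells of YO1, and at 1487 and 1523 in YO2. Its log2 difference was -0.03 ± 0.06 (SE of the fit, edgeR quasi-likelihood test, adjusted p = 0.937). Slc40a1 under the same gate differed by 0.01 ± 0.06 (adjusted p = 0.988). The widest of the 6 differences was that of Slc40a1 gated on H2-Q10, 0.12 ± 0.06 with an adjusted p of 0.705. For scale, the gate on the sum set a log2 difference of 2.47 to 3.29 on each of the 3 genes.

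The genes named with these cells besides the gate were little different in members. Tnfsf14, which encodes the TNF family ligand LIGHT, stood at 196 CPM in YO1 members against 181 in the reference, and at 243 against 219 in YO2. Fgl2, a secreted fibrinogen-like protein, was at 1969 against 1447 in YO1 and at 2042 against 1945 in YO2. Marcks, an actin-binding substrate of protein kinase C, was at 1731 against 1368 and at 2358 against 2214. Each of these genes was higher in members in both pools, by 0.07 to 0.44 on the log2 scale. They are reported without a test because they were chosen on these same cells. They did stay in the fits below, where their outcome counts in the totals but is no evidence for them.

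How many cells reached the sum of 4 depended on how many UMIs a cell had. Members had a median of 1062 UMIs and 582 genes in YO1 and 1294 UMIs and 675 genes in YO2, and reference cells 924 UMIs and 520 genes and 1130 UMIs and 614 genes. In YO1 18.5% of gated cells with 500 to 800 UMIs were members, 37.5% of those with 1000 to 1200 and 55.4% of those with 2000 to 3000. In YO2 the same ranges gave 28.3%, 51.3% and 87.3%. Over all depths members were 31.8% of gated cells in YO1 (95% exact interval 30.7 to 32.8) and 56.5% in YO2 (55.2 to 57.8). When cells of at least 1000 UMIs were thinned at random to 1000 UMIs each, 26.2% of 3867 YO1 cells and 41.6% of 4907 YO2 cells still reached 4, where the same cells unthinned gave 39.3% and 60.1%. YO2 was above YO1 in each depth range and after thinning. With 1 library per pool this difference has no test, the intervals cover counting error only, and a difference in the tissues or ages that each pool holds was not tested.

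**Figure D2:**
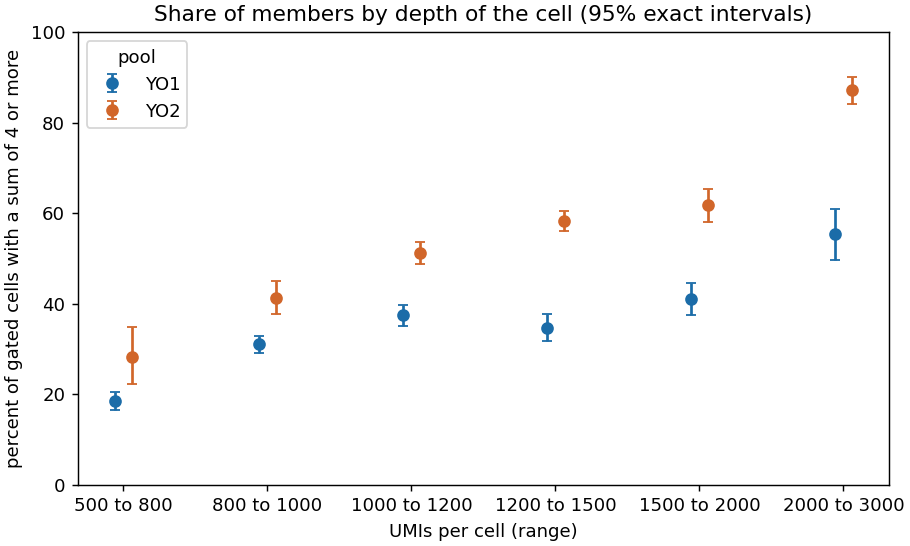
Percent of gated neutrophils with a sum of at least 4 (vertical axis, points with 95% exact intervals) in ranges of UMIs per cell (horizontal axis), blue for YO1 and orange for YO2. The share goes from 18.5% to 55.4% in YO1 and from 28.3% to 87.3% in YO2 between the lowest and the highest range, and YO2 lies above YO1 in each.

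Scnn1a and H2-Q10 were at like levels in gated cells and in 2 other classes of mature neutrophils, and Slc40a1 was lower in both of those classes. Over all gated cells, members or not, Scnn1a stood at 647 CPM in YO1 and 1107 in YO2. Cells with at least 3 UMIs of the interferon-induced genes had 679 and 946, and cells with at least 4 UMIs of Trem1 and Cd14 had 761 and 941. H2-Q10 was likewise at 1402 and 1504 in gated cells, 1309 and 1436 in interferon-high cells and 1403 and 1268 in Trem1 and Cd14-high cells. Slc40a1 was at 522 and 728, 487 and 641, and 444 and 541. Within each pool Slc40a1 was thus highest in gated cells and lowest in Trem1 and Cd14-high cells. For Scnn1a and H2-Q10 the order of the 3 classes differed between the pools. These differences were not tested. Immature cells stood apart: with at least 10 UMIs of Ngp they had 111 and 199 CPM of Scnn1a, 183 and 225 of Slc40a1 and 110.1 and 193 of H2-Q10, below these 3 classes. The 117 cells of YO2 with at least 3 UMIs of the activation genes lay between, with 374 CPM of Scnn1a, 223 of Slc40a1 and 823 of H2-Q10. Their Slc40a1 was as low as that of the immature cells of YO2. Cells of other types, with at least 2 UMIs of the 5 foreign genes and under 2% calprotectin, were lower still for Scnn1a, at 74.1 and 87.2. H2-Q10 was at 138 and 135 in those cells. In them 37.7% (YO1) and 38.7% (YO2) had a UMI of any of the 3 genes at median depths of 2824 and 4625 UMIs, against 87.0% and 94.7% of gated neutrophils at 989 and 1235 UMIs.

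**Figure D3:**
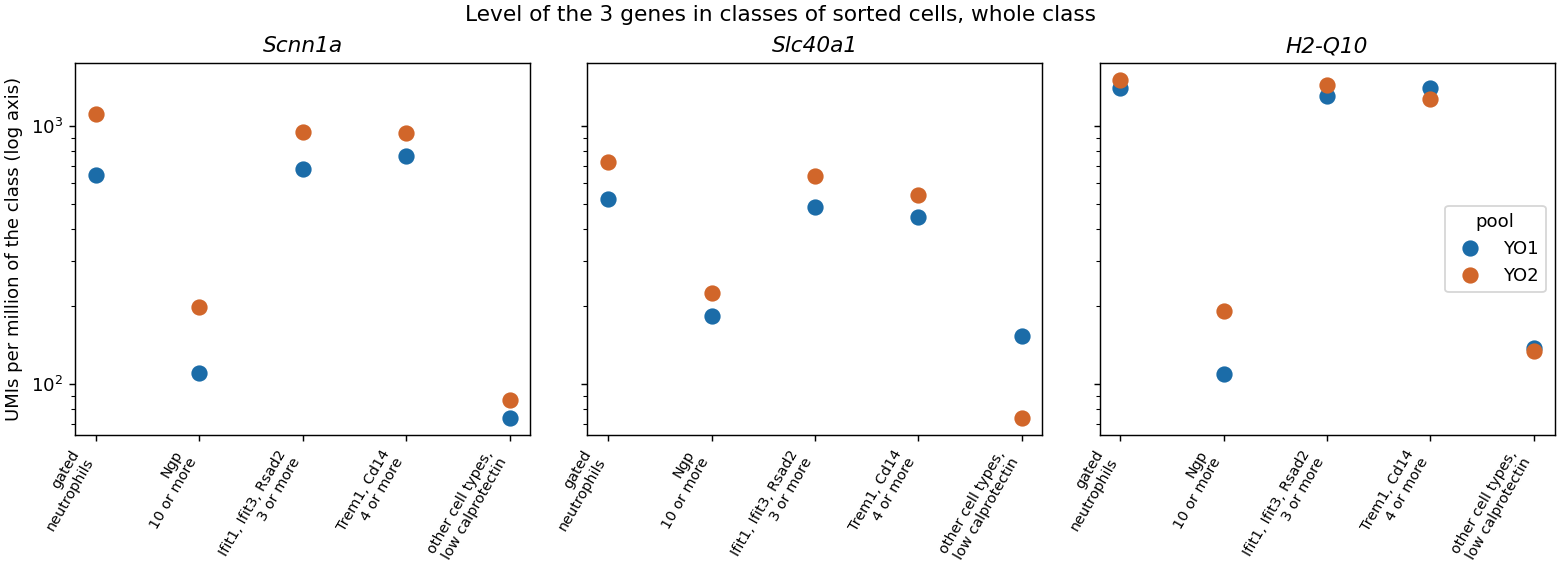
CPM (log axis) of Scnn1a, Slc40a1 and H2-Q10 in 5 classes of sorted cells (cells high in activation genes not shown), 1 point for each of YO1 (blue) and YO2 (orange). Gated, interferon-high and Trem1 and Cd14-high cells lie close together, for H2-Q10 between 1268 and 1504, while Ngp-high cells and cells of other types lie lower, at 110.1 to 193 and at 135 to 138.

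Members and reference cells were then compared gene by gene on the UMI sums of each pool, with the 19 genes of the gates left aside. Of 7890 genes tested, 40 differed (0.507%; edgeR quasi-likelihood test with the pool as a block, Benjamini-Hochberg adjusted p under 0.05). Of these, 13 were higher in members (0.165%) and 27 lower (0.342%), and with scaling by library totals alone the split was 26 and 26. The p-values rest on how far the differences between ranges of the sum disagreed between the 2 pools, drawn toward a spread shared over genes. Per gene there were 2 residual degrees of freedom, against a median prior of 16.5. A small p-value or SE therefore does not mean that the pools showed like differences. Camp, described below, passed with opposite directions in the 2 pools. Both groups of cells were cut from the same cartridges by genes of the same cells. The p-values are thus no independent evidence for the choice of members. DESeq2 called only Adpgk and Thbs1, both lower, and without the pool as a block no gene was called.

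Of the 27 genes lower in members, 6 were on the list of immature neutrophil genes. Ltf encodes lactoferrin, the iron-binding protein of secondary granules. It stood at 285 CPM in YO1 reference cells and 57.8 in YO1 members, and at 18.9 and 14.9 in YO2, a log2 difference of -2.05 ± 0.20 (SE, adjusted p = 2.53e-05). The fall was large in YO1, and YO2 had little Ltf in either group. It rested on few cells: 34 YO1 reference cells with at least 3 Ltf UMIs held 77.9% of the 755 Ltf UMIs there, while the share of cells with any Ltf UMI was 7.07% in the reference and 6.26% in members. Mmp8, neutrophil collagenase, was more widely spread, at 3295 and 1560 CPM in YO1 and 1309 and 1154 in YO2 (log2 -0.69 ± 0.13, adjusted p = 0.0124). Cd177, a surface glycoprotein of neutrophils, fell from 91.8 to 31.4 in YO1 and from 23.6 to 15.7 in YO2 (-1.34 ± 0.18, adjusted p = 0.00059). Ly6g was at 341 and 143 in YO1 and at 90.5 and 90.3 in YO2 (-0.88 ± 0.16, adjusted p = 0.0137). For Ly6g the whole difference thus came from YO1.

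The other lower genes differed in how far both pools shared the fall. Adpgk, an ADP-dependent glucokinase, fell from 259 to 74.8 CPM in YO1 and from 31.1 to 14.3 in YO2, with the smallest adjusted p of the comparison (log2 -1.72 ± 0.13, adjusted p = 3.69e-07). Chil3, a chitinase-like lectin, Olfm4, a granule glycoprotein, Itgb2l, an integrin beta chain, and Tinagl1 fell by 1.05, 1.05, 1.76 and 1.20. In YO2 alone these were at -0.49, -0.28, -0.41 and -0.19. Fmo5, Syne1, Ifrd1, Capg, Ifitm6, Ckap4 and Rab3d, the last a small GTPase of granule exocytosis, fell by 0.94, 0.84, 0.80, 0.78, 0.71, 0.57 and 0.54. In YO2 alone they were at -0.44, -0.61, -0.51, -0.32, -0.06, -0.07 and -0.13. Ifitm6, Ckap4 and Rab3d were thus nearly level there. Camp, the cathelicidin of secondary granules, was lower in the fit (-1.30 ± 0.15) but not in both pools: it was at 263 and 103 CPM in YO1 and at 9.43 and 10.8 in YO2. Gpr27, an orphan receptor named after its value was seen since it averaged under 20 CPM, fell by 1.93. Tlr2, a sensor of bacterial lipopeptides, and Ncf1, a cytosolic subunit of the NADPH oxidase, fell by 0.39 and 0.31. Stfa3, a stefin protease inhibitor, fell by 1.33, and it and Tlr2 were lower by like amounts in each pool (-1.27 and -1.32 for Stfa3, -0.33 and -0.39 for Tlr2, in YO1 and YO2). Cdk11b, Dstn and Slc27a4 fell by 0.48, 0.47 and 0.46. The median over the 27 lower genes was -1.09 in YO1 and -0.32 in YO2.

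Thbs1 and Ccrl2 were of another kind. Thbs1, the matricellular protein thrombospondin-1, was at 307 CPM in reference cells and 186 in members of YO1, and at 211 and 108 in YO2, and so was lower by a like amount in each (log2 -0.88 ± 0.10, adjusted p = 0.000166). Ccrl2, a chemerin-binding receptor induced by inflammatory stimuli, was at 154 and 147 in YO1 but at 498 and 176 in YO2 (-0.88 ± 0.18, adjusted p = 0.0336). Its difference came almost wholly from YO2, the reverse of the granule genes.

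The lower genes were read again after matching reference cells and members within ranges of 100 UMIs of depth, and among cells with no Ngp UMI. With depth matched, 6717 genes were tested and 90 differed (1.34%), 22 higher (0.328%) and 68 lower (1.01%). The 22 include Fgl2 and Marcks, which were chosen on these cells. Of the 27 lower genes 26 remained. Ltf was then at -1.91 ± 0.18, Adpgk at -2.14 ± 0.15 and Mmp8 at -0.82 ± 0.11. Among cells with 0 Ngp UMIs, 5 of the 27 remained: Ltf at -0.98 ± 0.18, Adpgk at -0.86 ± 0.20, Thbs1 at -0.72 ± 0.10, Ccrl2 at -0.96 ± 0.13 and Mmp8 at -0.34 ± 0.06. With depth matched among cells with 0 Ngp UMIs 5 again remained, but Ltf, at -0.76 ± 0.22, was not called (edgeR, adjusted p = 0.204). Ly6g, at -0.75 ± 0.16, was called in its place. Ngp, a gate gene, was itself at 782 CPM in YO1 reference cells and 333 in members, and at 86.7 and 56.6 in YO2. A Ngp UMI was present in 29.6% of YO1 reference cells and 24.6% of YO1 members, and in 5.93% and 6.26% in YO2.

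Levels of these genes went down along the sum in YO1 without a step at 4. Cells of YO1 with a sum of 0, 2, 4 and at least 8 had 3751, 2470.1, 1796 and 1174 CPM of Mmp8 and 398, 235, 161 and 125 of Ly6g. Retnlg, not past the threshold, was at 25381, 18508, 14859 and 9717 in the same cells. In YO2 Retnlg was at 9812, 8460, 8874 and 8342, and Mmp8 at 1538, 1299, 1178 and 1069. The values in YO1 approached those of YO2 as the sum grew. Thbs1 declined in both pools, from 320 to 141 in YO1 and from 291 to 109 in YO2 between a sum of 0 and of at least 8.

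**Figure D4:**
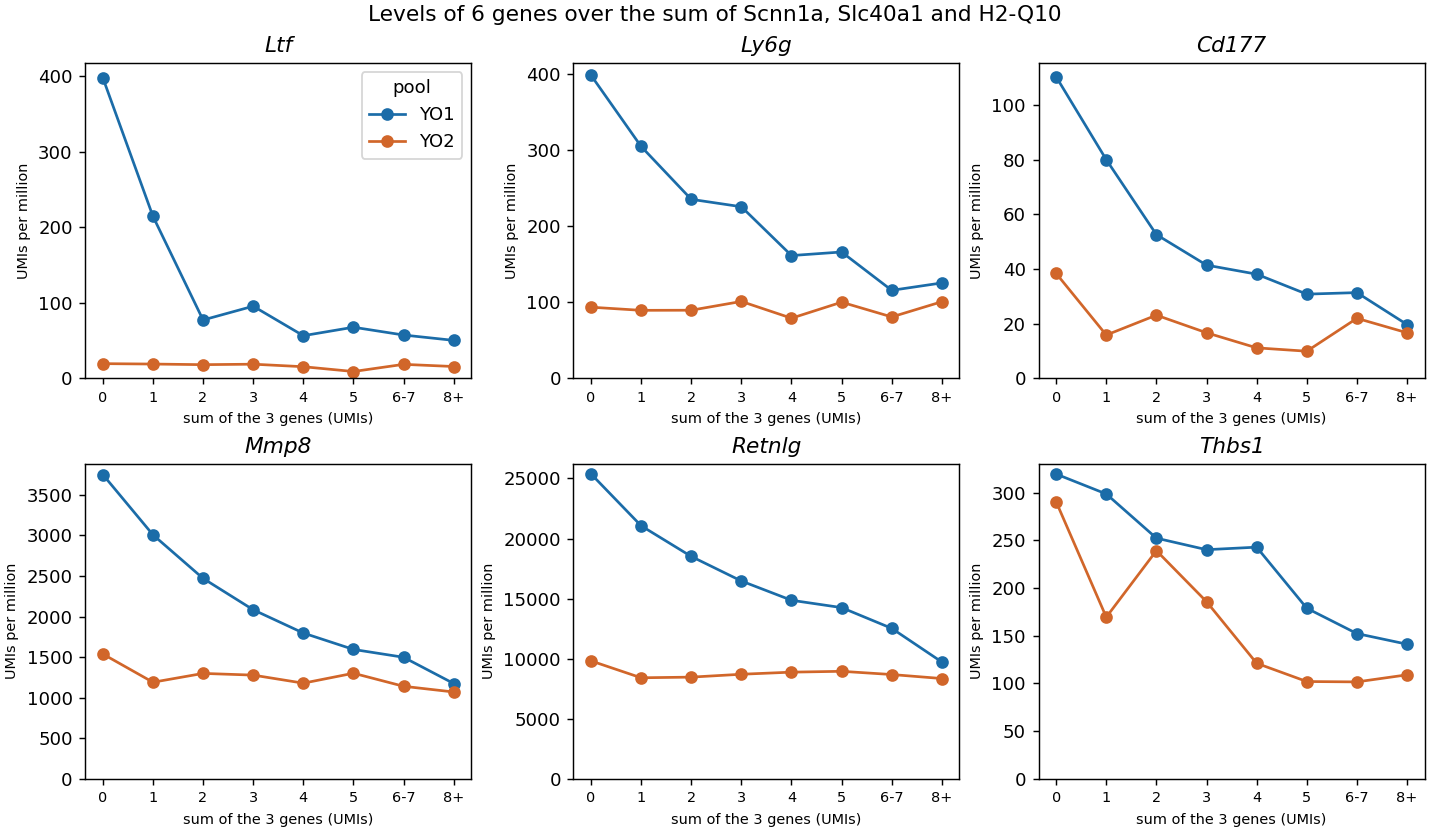
CPM (vertical axes, from 0) of Ltf, Ly6g, Cd177, Mmp8, Retnlg and Thbs1 in gated cells grouped by the sum of the 3 genes (horizontal axes), blue for YO1 and orange for YO2, 1 library each. In YO1 Mmp8 goes from 3751 to 1174 and Retnlg from 25381 to 9717 in a gradual decline, while in YO2 Retnlg goes from 9812 to 8342 and Thbs1 from 291 to 109.

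The genes that were higher in members formed groups of different standing. Ace, Cd36, Ctss and Apoe are known from monocytes and macrophages: a peptidase of nonclassical monocytes, a lipid scavenger receptor, the protease cathepsin S and apolipoprotein E. Ace was at 25.7 CPM in YO1 reference cells and 53.1 in members, and at 1.89 and 21.5 in YO2 (log2 1.26 ± 0.24, adjusted p = 0.0206). Only 47 of 2540 YO1 members had an Ace UMI, and 29 of them, with a median of 3284 UMIs in all, held 87.6% of it. In YO2 11 of 3323 members held 76.2%, at a median of 3625 UMIs. Ctss was at 119.8 and 208 in YO1 and 133 and 163 in YO2 (0.56 ± 0.10), and Apoe at 124 and 221 and at 99.9 and 128 (0.63 ± 0.10). Cd36 rose by 1.90 ± 0.29 and Clec4a1, a C-type lectin receptor, by 0.79 ± 0.17. With depth matched, Ace was at -0.98 ± 0.36, Ctss at -0.10 ± 0.13, Cd36 at -0.09 ± 0.55 and Apoe at 0.03, none past the threshold. Among cells with 0 Ngp UMIs, depth not matched, 8 of the 13 higher genes remained. Ace was there at 1.71, Cd36 at 2.10, Apoe at 0.61 and Ctss at 0.43. With members of a sum of at least 6, 11 of the 13 remained. The matched comparison did call lower a group of antigen presentation genes, Cd74 at -1.02, H2-Aa at -1.36, H2-Ab1 at -1.31 and H2-Eb1 at -1.33, and Plac8 at -0.81, which are named after their values were seen and lay above 0 without matching. Cd300e, Adgre4 and Pld4, also genes of monocytes, rose by 2.01, 1.73 and 1.39 at averages under 20 CPM and are named after their values were seen. Adgre4 and Pld4 too were below 0 with depth matched, at -0.16 and -0.39. Cpsf4, a polyadenylation factor named on the same terms, rose by 1.63 and moved less: it was at 1.55 ± 0.42 with depth matched (adjusted p = 0.0536), at 1.84 among cells with 0 Ngp UMIs and at 1.64 without cells of at least 3 monocyte-marker UMIs.

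The other higher genes were broadly expressed and rose by small amounts. Tagln2, an actin-binding transgelin, was at 327 and 499 CPM in YO1 and 589 and 683 in YO2 (log2 0.38 ± 0.08, adjusted p = 0.0336). Vim, the intermediate filament vimentin, was at 636 and 770.5 and at 746 and 979.6 (0.30 ± 0.06). Oasl2 and Trim30d, which interferon induces, rose by 0.28 ± 0.06 and 0.35 ± 0.08. These 4 are the higher genes that remained with depth matched, at 0.50, 0.33, 0.32 and 0.49. Further genes higher in the matched comparison alone, chosen here after their values were seen, ran from Gzma, a granzyme of lymphocytes, at 4.70 and Dusp18 at 1.92 to Prr5l at 0.43, Itga4, an integrin alpha chain, at 0.38 and Pla2g7, which degrades platelet-activating factor, at 0.34. Gzma was at 20.1 CPM in YO1 members against 0.38 and at 7.77 in YO2 members against 26.4 without matching, so its direction differed between the pools.

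**Figure D5:**
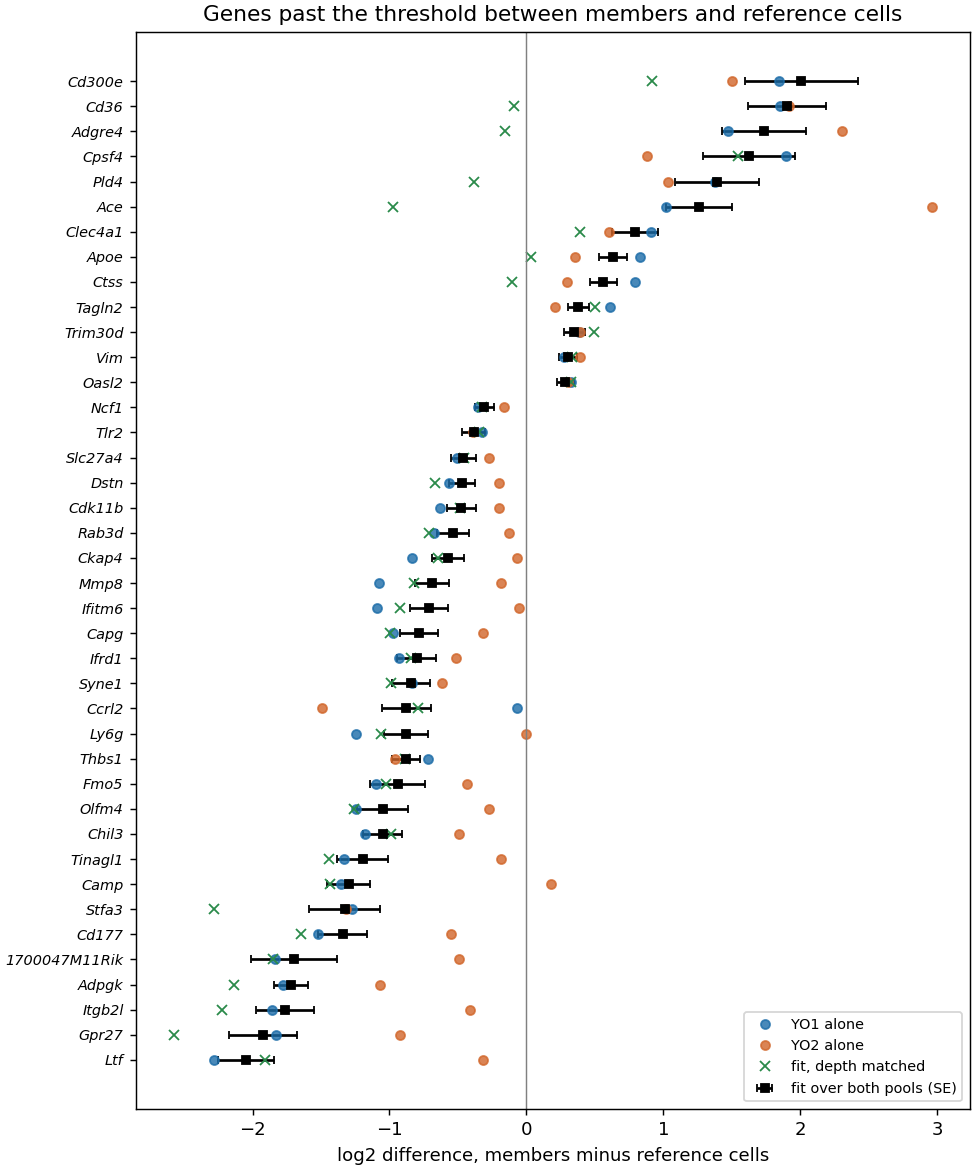
Log2 difference between members and reference cells (horizontal axis) of the 40 genes past the threshold (rows): the fit over both pools with its SE (black), each pool alone with 1 CPM added (blue YO1, orange YO2) and the fit with depth matched (green crosses). The lower genes lie further from 0 in YO1 (median -1.09) than in YO2 (median -0.32), and the crosses of Ace, Ctss and Cd36 lie left of 0.

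Cells with monocyte genes were present in both groups. At least 3 UMIs of 9 monocyte markers (Ace, Treml4, Ly6c2, Ccr2, Csf1r, F13a1, Cx3cr1, Ms4a6c and Fn1) were found in 6.69% of YO1 members and 6.61% of YO1 reference cells, and in 5.72% of YO2 members and 2.74% of YO2 reference cells. These cells were deep among members, with medians of 2018 UMIs in YO1 and 1680.0 in YO2. Without them 6 genes were higher and 18 lower, and Ctss was at -0.07 ± 0.10. The 10 genes of the whole monocyte list summed to 1397 and 1163 CPM in members and 1302 and 1325 in the reference, with none of them at 0. Nr4a1, on that list but not among the 9, made up 647 and 660 CPM in members and 550 and 895 in the reference. It fell by more in YO2 than the whole list, so the lower sum of YO2 members came from Nr4a1. The part of the cells with monocyte genes in the result beyond these values was not tested, and no doublet caller was run. Other cell types left low levels in both groups. The gate kept the sum of C1qa, F13a1, Cd79a, Cd3e and Clec4g under 2 UMIs, and these genes are on the lists. Low levels of B cell, macrophage, endothelial and T and NK cell markers were thus in part set by the rule. B cell markers summed to 144 and 181 CPM against 124 and 153, macrophage markers to 278 and 303 against 270.2 and 266, and endothelial markers to 127 and 49.0 against 123 and 31.1. Those of T and NK cells summed to 51.8 and 22.3 against 21.5 and 60.3, higher in members of YO1 and lower in those of YO2. Basophil and mast cell markers summed to 26.1 and 2.86 against 14.0 and 1.89, and dendritic cell markers to 745 and 479 against 547 and 435. Of the 12 epithelial markers, Scnn1a made up nearly all, and the other 11 summed to 12.6 and 28.2 in members and 17.4 and 29.2 in the reference.

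Lists of genes by function were chosen with earlier results in view and are given as counts. Over all tested genes the median difference was 0.00. Of all 7890, 346 were higher and 361 lower at an unadjusted p under 0.05 in edgeR, and 45 and 53 in DESeq2. The unadjusted counts of the lists, here and below, are to be read beside these. Of the secondary granule list, 6 of 10 tested genes fell (Ltf, Cd177, Camp, Chil3, Olfm4 and Mmp8) and none rose, with a median of -0.87. That median was -1.13 in YO1 alone and -0.08 in YO2 alone, so YO1 carried it. The immature neutrophil list, which shares most of these genes, had 6 of 16 lower, and DESeq2 called 0 genes of either list. Of 24 genes of mature neutrophils edgeR and DESeq2 called 0. At an unadjusted p under 0.05 edgeR had 1 higher and 1 lower, and DESeq2 had 1 higher. Of the 11 genes of tertiary granules and secretory vesicles both called 0. At an unadjusted p under 0.05, 6 were lower in edgeR and 3 in DESeq2, and 0 were higher in either. The formyl peptide receptors Fpr1 and Fpr2 of that list were at -0.36 ± 0.08 and -0.30 ± 0.07 (adjusted p = 0.0573 for each). Of 25 NF-kB response genes edgeR called 0 and DESeq2 called 0. At an unadjusted p under 0.05, 6 were lower in edgeR and 1 in DESeq2. Of 59 cytosolic ribosomal protein genes 54 lay above 0, with a median of 0.16, and edgeR and DESeq2 called 0, with 25 higher at an unadjusted p under 0.05 in edgeR. With depth matched their median was 0.02. In 23 of the 34 lists no gene was called.

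The partner genes of the gate did not follow it. Among 19 tested genes of iron handling, where ferroportin acts, edgeR called 0 higher and 1 lower, and that gene was Ltf. DESeq2 called 0. At an unadjusted p under 0.05, 2 were lower in edgeR and 1 in DESeq2, and 0 were higher in either. Fth1 and Ftl1, the ferritin subunits that store iron, were at 3462 and 2690.2 CPM in YO1 members against 3026 and 2493, and at 4606 and 2428 in YO2 members against 4904 and 2331. Their log2 differences were 0.02 ± 0.06 and 0.05 ± 0.05. Hmox1, which frees iron from heme, differed by 0.06 ± 0.09, and Slc11a1, the phagosomal metal transporter, by -0.05 ± 0.09. Lcn2, the siderophore-binding lipocalin, was at 3368 and 2103 in YO1 and at 1278 and 1302 in YO2 (-0.39 ± 0.11, adjusted p = 0.147). The exporter's own ferroxidases Heph and Cp were nearly undetected, with at most 2.04 CPM in members.

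Of 11 tested genes of sodium transport edgeR and DESeq2 called 0, with 1 lower and 0 higher at an unadjusted p under 0.05 in edgeR. Scnn1b and Scnn1g, the beta and gamma subunits that complete the epithelial channel with Scnn1a, had 0 UMIs in members and in reference cells of both pools. Among 4893722 UMIs of YO2 members and 3183785 of YO1 members, a count of 0 speaks only at the depth of these libraries. Nedd4l, the ligase that removes the channel, was at 24.5 and 27.6 in members of YO1 and YO2 against 23.1 and 17.0 (0.24 ± 0.21), and its kinase Sgk1 at 68.8 and 102 against 59.0 and 93.3 (0.15 ± 0.11). Class I genes were nearly level too: H2-K1 differed by 0.15 ± 0.06 (adjusted p = 0.43), B2m, the shared light chain, by 0.10 ± 0.05 and H2-D1 by 0.07 ± 0.05. H2-Q7, a close relative of H2-Q10, was at 49.6 in YO1 members against 30.6 and at 21.9 in YO2 members against 17.0 (0.53 ± 0.19, adjusted p = 0.346). None of the 3 class Ia and 7 class Ib genes was called by edgeR or DESeq2. At an unadjusted p under 0.05, 1 of each was higher in edgeR and 0 in DESeq2. Of the 12 tested ligands and receptors of the TNF family edgeR and DESeq2 called 0, and 0 had an unadjusted p under 0.05 in either. Tnfsf14 is counted among the 12, but its own outcome is no evidence, since it was chosen on these cells.

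Against other neutrophils of the same pools, which were separated by their own marker genes in the same cells, members differed most from the Ngp-high immature cells. In this comparison, added after the data were seen, 8837 genes were tested and 2427 were higher in members (27.5%) and 2939 lower (33.3%). Of the 24 genes of mature neutrophils 22 were higher, and of the 16 immature genes 15 were lower. Sirpb1b, a paired signal-regulatory receptor, stood at 240 and 187 CPM in members of YO1 and YO2 against 14.0 and 15.9 in immature cells (log2 3.92 ± 0.18). The chemokine receptor Cxcr1 was at 28.3 and 51.3 against 1.17 and 6.54 (3.86 ± 0.34). All 22 tested immediate early genes were higher too. Camp and Ltf fell by 8.70 and 8.69, with Camp at 103 and 10.8 in members and 14774 and 13199 in immature cells. Genes of cell division such as Ube2c (-6.49), Birc5 (-6.17) and Ccna2 (-6.02) were all but silent in members, at 0.41 to 3.77 CPM.

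Fewer genes differed from the interferon-high and the Trem1 and Cd14-high cells. Cells high in more than 1 of the interferon, activation and Trem1 and Cd14 sets were left out here, unlike in the levels given above. This left 424 and 582 interferon-high cells in YO1 and YO2, and 1997 and 3050 Trem1 and Cd14-high cells. Against the interferon-high cells 3 genes were higher in members (0.0339%) and 119 lower (1.35%). Of the 3 higher genes 2 were azurophil granule genes. Among the lower genes were 31 of 35 tested interferon-stimulated genes, where Isg15 fell by 3.19 and Usp18 fell by 3.52, and 5 of 14 tested genes of peptide loading and the immunoproteasome. Against cells high in Trem1 and Cd14, 4 genes were higher (0.0453%) and 43 lower (0.487%). Of the 4 higher genes 3 were azurophil granule genes. The lower genes included Tnfaip3, a brake on NF-kB, at 89.2 and 74.2 CPM in members against 288 and 250.4 (-1.80 ± 0.19, adjusted p = 0.0005). Ptgs2, the inducible cyclooxygenase, was at 492 and 741 against 1673 and 2139 (-1.74 ± 0.28). Fosb, Cdkn1a and Ccrl2 fell by 1.73, 1.65 and 1.73. Thbs1 was at 186 and 108 against 596 and 362, lower by 1.79 ± 0.28. Sgk1, a kinase that glucocorticoids induce, was higher by 0.77 ± 0.13. These cells were deeper than members (medians of 1184 and 1552 UMIs against 1062 and 1294), and with all cells thinned to 1000 UMIs 9 genes were higher and 119 lower.

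Elane, which encodes neutrophil elastase of azurophil granules, was among the genes called higher in members against both classes. It was higher by 4.26 ± 0.48 against interferon-high and by 4.26 ± 0.31 against Trem1 and Cd14-high cells. Both calls rested on 3 cells. These 3 YO1 members held 97.5% of the 608 Elane UMIs and 98.1% of the 587 Mpo UMIs of all YO1 members, at a median of 13358 UMIs per cell. YO2 members had 3 UMIs of Elane and 0 of Mpo. In YO1 reference cells, likewise, 3 cells held 97.2% of 392 Mpo UMIs. By the rule all of these cells had under 10 UMIs of Ngp.

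Finally the members of the 2 pools were set side by side, without a test. Of 5235 genes with at least 100 UMIs in members, 13 were at least 2-fold higher in YO2 (0.248%) and 57 in YO1 (1.09%). With each cell weighted alike these counts were 15 and 34, and in members of 1000 to 3000 UMIs 15 and 23. The highest in YO2 were immunoglobulin genes, which plasma cells make: Igkc was at 117 CPM in YO1 and 1243 in YO2, Igha at 18.5 and 529, and Jchain at 9.42 and 92.8. Reference cells had Igkc at 118 and 1142. The 8 markers of plasma cells summed to 306 and 2094 in members and to 290.3 and 1999.5 in reference cells. Egr1, an immediate early transcription factor, was at 249 in YO1 members and 1143 in YO2 members, a ratio of 4.59 (95% counting interval 4.26 to 4.95), and the log2 ratio of the pools was 2.19 in members and 2.27 in reference cells. Eno1 and Taf7 were 2.50-fold and 2.43-fold higher in YO2. Higher in YO1 were the azurophil genes of the cells above, Camp at 103 against 10.8 and Adpgk at 74.8 against 14.3, and Ehd3, Aqp1 and Dnase1l3, genes of liver sinusoidal endothelium, at 43.0, 31.7 and 28.9 against 0.41, 0.61 and 4.09. Ehd3 was at 39.3 in YO1 reference cells. Igkc, Egr1 and Ehd3 thus set the pools apart in reference cells as they did in members, and what differed between the cartridges was not tested.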

How the data were processed

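The deposited matrix holds UMI counts per gene and barcode, whole numbers made by the authors, with mm10 named in the submitters' processing notes. How reads were aligned and cells called is not stated in the sources used here. The matrix held 21995 genes. Of the cell numbers, 406 occurred in both pools and were kept apart by pool. Sample tag libraries and the unidentified YO1 sample were not analysed here.

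UMIs were summed per pool and range of the sum (6 sums) and fitted with edgeR 4.0.16 in R 4.3.3 (TMM, filterByExpr, quasi-likelihood, two-sided, pool as a block since both cell groups share a cartridge, 2 residual degrees of freedom). DESeq2 1.42.0 served as an alternative. Tables and figures were made in Python 3.11.15 (scipy 1.17.1, numpy 2.4.6, matplotlib 3.10.9, pandas 2.3.3). In simulated data the fit recovered 68 of 100 genes changed by a log2 of 1 and 35 of 100 changed by 0.5. It also called 6 of 7461 unchanged genes. Changes of these sizes could thus go uncalled. The simulated counts had a single mean per gene in both pools, and their spread followed the trend over genes. Genes on which the pools disagree, such as Camp, were not simulated, so these rates need not hold for the data. Shares carry exact Clopper-Pearson intervals at 95%. Genes were named as the 15 highest and 15 lowest among called genes of at least 20 CPM with the same direction in both pools, numbered gene models and ribosomal and mitochondrial genes aside, plus up to 6 per list. Between pools the 10 most extreme ratios were named, among genes past 2-fold. Positions are from GENCODE M21. The members, the 34 gene lists and the 17 marker lists were chosen with earlier results of these data known. The comparison with other neutrophil classes was added after the data were seen. That samples were separate animals is not stated beyond the repeat of the experiment. The p-values thus rest on how far the pools disagreed over differences between groups of cells, drawn toward a spread shared over genes.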

Additional observations from a re-analysis of the deposited data

How the results depend on the processing

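Against 13 higher and 27 lower genes in members, DESeq2 gave 0 and 2, and a fit with no replicate block, which ignores that the sums are paired by pool, gave 0 and 0. Library totals gave 26 higher, no filter beyond 10 UMIs 39 and 72, and depth matching 22 and 68. Thinning to 1000 UMIs gave 0 and 9, and a gate of at least 3 against 0 UMIs set after thinning, which changed both choices, 137 lower. Gates on Scnn1a alone gave 23 and 7, on Slc40a1 or H2-Q10 alone 5 higher each, and a sum of at least 6 gave 20 higher. A mitochondrial share under 10% gave 4 and 15, foreign genes at 0 gave 1 and 11, and leaving out the deepest 5% gave 4 and 16. Added after the data were seen, cells without monocyte markers gave 6 higher, and cells with 0 Ngp UMIs 14 lower, with or without depth matching. Of the genes named, Ace (-0.98), Ctss (-0.10) and Cd36 (-0.089) turned negative with depth matched, and so did Adgre4 (-0.16) and Pld4 (-0.39). With the gate of at least 3 against 0 after thinning, Ace was at -2.24 and Ctss at -0.99, both called lower (edgeR, adjusted p = 0.00292 and 0.00257), Cd36 -2.49, Clec4a1 -0.80, Apoe -0.32, Adgre4 -1.43 (also called lower, adjusted p = 0.0464), Pld4 -1.45 and Cd300e -1.67. Apoe was at -0.10 and Ctss at -0.38 with depth matched among cells with 0 Ngp UMIs, Ctss at -0.073 without cells of monocyte markers, and Cd36 at -0.064 in the gate on Slc40a1. With 1 pool left out, Camp ranged from -1.35 (YO1 alone) to 0.18 (YO2 alone), and it was at -1.44 with depth matched and -2.31 with the gate after thinning. The cause of these changes was not tested.

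Against interferon-high cells thinning gave 1 higher gene and no replicate block 0. Against Trem1 and Cd14-high cells thinning gave 9 and 119 and no replicate block 0 and 0. Against Ngp-high cells no replicate block gave 2056 and 2535. The share of members moved to 26.2% (YO1) and 41.6% (YO2) after thinning, to 12.8% and 31.9% at a sum of at least 6, and was 13.02% and 19.3% of all kept cells. Genes higher in YO1 numbered 34 with each cell weighted alike and 23 in members of 1000 to 3000 UMIs. With 2 pools, calls that rest on 1 pool cannot be told apart from calls of that cartridge.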
